A study of Drosophila melanogaster with 22 samples.

Results

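Accessible chromatin after knockdown of the B-type lamin was compared with its control in hearts dissected from adult Drosophila melanogaster at 1 week of age. The comparison took 8 of the 22 libraries of the series, chosen by their titles: 5 LamB RNAi libraries and 3 attp40 control libraries. Per the series' design text, both groups carried Hand-Gal4, a driver active in the heart, crossed in the controls to the attp40 strain and in the knockdown to a LamB RNAi line whose strain label also names attp40. That text counts 4 knockdown libraries where the labels give 5, and all 5 were used. Hand-Gal4 is active in cardiomyocytes and pericardial cells, and a dissected heart can hold other cells too. The labels used here give neither the sex of the flies nor whether replicates were separate pools of hearts. The p-values therefore cover the spread among these 8 libraries, part of which may be technical. In a bulk sample, fewer cells of a type and less open chromatin per cell cannot be told apart. The other 4 groups (w1118 at 1 week and at 5 weeks, 3 libraries each, and Hand-Gal4 crossed to attp2 or to LamC RNAi at 1 week, 4 each) were used to see which of the compared groups stood apart at a region.

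Lamins are intermediate filament proteins that line the inner face of the nuclear envelope. Flies have an A-type lamin, encoded by LamC, and a B-type lamin, encoded by Lam and called LamB in the labels. The B-type lamin anchors gene-poor, mostly silent chromatin at the nuclear periphery. ATAC-seq cuts DNA where a transposase can reach it, so that a peak marks a stretch of open chromatin such as an active promoter or enhancer.

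Each library came with its own list of 8491 to 11150 peaks. Their sequencing depth is unknown, since the lists hold no reads. Every list was reduced to its 8491 strongest peaks, the length of the shortest, which belonged to attp40 replicate 3. Overlapping peaks were merged into 10379 regions, and 8763 of these, where 3 or more of the 8 libraries had a peak, were tested. The value of a region in a library is a rank score, which is 1 for the strongest peak of the list, falls in even steps with rank, and is 0 where the reduced list holds no peak. A score of 0 can therefore hide a weak peak of the full deposited list, and below "no peak" without further words means none in the full list either. It orders the peaks of 1 library and does not measure how much chromatin was open in total.

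The landscape of open chromatin was shared to a large extent. A peak was present in all 8 libraries at 6024 regions (68.7% of those tested), and the median absolute difference between group means was 0.0416 on the rank score. Over 0.2 lay 202 regions (2.31%). Pearson's r between libraries, across regions, was 0.847 to 0.919 between the groups (median 0.888), 0.839 to 0.939 within LamB RNAi (median 0.881) and 0.877 to 0.916 within attp40 (median 0.900). Regions within a library are not independent replicates, so these values are descriptive. The Jaccard index of covered bases was 0.697 within groups and 0.705 between them, a difference of -0.00869 (exact permutation test over 56 splits, one-sided, p = 0.643). The index within groups was thus not above that between them.

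At the targeted gene itself the score differed little between the groups. RNAi acts on the transcript, so accessibility at Lam does not check the knockdown, and no RNA was measured in these libraries. At the end of Lam that it shares with Hel25E, an RNA helicase gene (dm6, 2L, 5542060 to 5543478), attp40 libraries scored 0.781, 0.626 and 0.679 and LamB RNAi libraries 0.731, 0.665, 0.630, 0.594 and 0.809. The 2 sets overlapped throughout. The region at the other end of Lam, beside Oscillin (2L, 5546704 to 5547532), scored 0.789 ± 0.0537 (SD, n = 3) in attp40 and 0.760 ± 0.0274 (n = 5) after LamB RNAi. At LamC, the A-type lamin gene (2R, 14574344 to 14576278), means were 0.749 ± 0.034 and 0.783 ± 0.0433, and the region in its body that overlaps ttv (2R, 14572964 to 14573248) scored 0.128 ± 0.0766 and 0.155 ± 0.152. None of these 4 regions passed the threshold (limma adjusted p of 0.985 or above for each).

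Scores were tested with limma and Benjamini-Hochberg adjustment over all 8763 regions, with a threshold of 0.05. After LamB RNAi 5 regions were higher (0.0571% of those tested) and 0 were lower (0.0%). Without adjustment, 186 regions were higher (2.12%) and 242 lower (2.76%) at p under 0.05, together 4.88%. The 8 libraries did not overlap between the groups at 105 regions higher after LamB RNAi (1.2%) and at 208 lower (2.37%), together 3.57%. With random labels and no ties, 5 against 3 libraries separate in 1 given direction with probability 0.0179. The shares without adjustment are thus near those of random labels. A lack of overlap at a region picked for its small p adds no support. The count of calls rested on single libraries. It was 1 without attp40 replicate 2, attp40 replicate 3, LamB RNAi replicate 3 or LamB RNAi replicate 5, and 3 without attp40 replicate 1 or LamB RNAi replicate 2. The 1 region kept in each of the first 4 cases lay on a Y scaffold. Dates stand in the names of the lists, with no word on what was done on them: 14 February for attp40 replicate 3, and 6 to 21 July for the other 7.

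**Figure D1:**
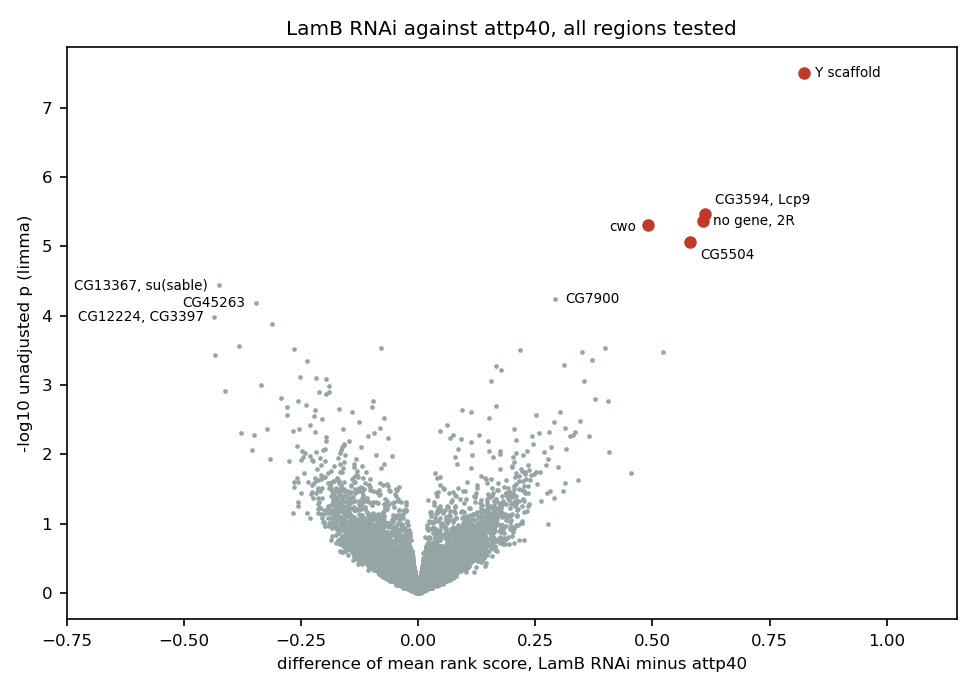
Difference of mean rank score (x axis, LamB RNAi minus attp40) against −log10 of the unadjusted limma p (y axis), 1 point for each of the 8763 regions. The 5 regions past the adjusted threshold are in red, all on the right, with differences of 0.491 to 0.825.

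The region with the highest difference lay on an unlocalised scaffold of the Y chromosome (dm6, bases 1361 to 1804 of that scaffold), where the gene table gave no gene. All 3 attp40 libraries had no peak there, and the LamB RNAi libraries scored 0.885, 0.813, 0.836, 0.869 and 0.720. The groups did not overlap, and the difference was 0.825 ± 0.0705 (SE, limma adjusted p = 0.000276). In the authors' deposited lists the LamB RNAi peaks had folds over local background of 10.8 to 18.2. The other groups fell to the same extremes of the score: all 4 attp2 libraries had no peak and all 4 LamC RNAi libraries scored 0 with a peak below the reduced list, whereas w1118 libraries scored 0.961 to 0.975 at 1 week and 0.912 to 0.956 at 5 weeks. The score here thus also differed between groups without a lamin knockdown, and knockdown and strain cannot be told apart at this region.

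A second region of the same scaffold (bases 11600 to 12138) had the same layout of groups. No attp40 library had a peak there, and LamB RNAi libraries scored 0.795, 0.500, 0.425, 0.276 and 0.615 (adjusted p = 0.174). The means of attp2 and LamC RNAi were 0, and those of w1118 were 0.982 at 1 week and 0.990 at 5 weeks. The Y and unplaced scaffolds held 9 tested regions in all, with 1 called. The deposited lists held 7, 6 and 7 peaks on these scaffolds in attp40 and 14, 13, 13, 14 and 12 after LamB RNAi, which is 6.67 ± 0.577 (SD, n = 3) against 13.2 ± 0.837 (n = 5). This difference had the smallest two-sided p that 5 against 3 libraries can give (exact permutation test, p = 0.0179, adjusted over 7 library measures p = 0.125). In lists of equal length the counts were 5.67 ± 1.53 and 9.2 ± 2.28 (exact permutation p = 0.0536).

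The region near cwo was the only called region at which every LamB RNAi library lay above every library of all 5 other groups. cwo (clockwork orange) encodes a basic helix-loop-helix repressor of the circadian clock, which binds the promoters of other clock genes. The region (3R, 10384490 to 10384996) lay 3262 bp from the nearest end of the gene. Scores were 0.307, 0.183 and 0.291 in attp40, and 0.676, 0.810, 0.793, 0.720 and 0.758 after LamB RNAi. Every LamB RNAi library lay above every attp40 library, by 0.491 ± 0.0656 on average (SE, limma adjusted p = 0.0107). A peak was present in all 8 libraries, with deposited folds of 4.18 to 4.45 in attp40 and 6.92 to 9.90 after LamB RNAi.

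No library of any other group reached the LamB RNAi range near cwo. The libraries scored 0.141 to 0.276 in attp2, 0 to 0.257 after LamC RNAi, 0.205 to 0.356 in w1118 at 1 week and 0.0847 to 0.257 at 5 weeks. The other 3 regions assigned to cwo had smaller differences, none past the threshold. The region at the end of the gene (3R, 10388100 to 10388952) scored 0.828 ± 0.0211 in attp40 and 0.815 ± 0.0822 after LamB RNAi, and 2 regions in the gene body (3R, starting at 10391881 and 10392806) differed by -0.0185 and 0.111. A list of 13 clock genes, added after the values of cwo had been seen, held 44 regions, of which 1 was called (0.0571% over all regions), the cwo region that had prompted the list. Their median difference was 0.0237, against -0.0051 over all regions tested.

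CG5504, which the gene table also names l(2)tid and which encodes a DnaJ-type mitochondrial chaperone, had a higher region at its end (2R, 23706755 to 23707267). The attp40 libraries scored 0, 0.162 and 0, and the LamB RNAi libraries 0.731, 0.581, 0.605, 0.592 and 0.665. The groups did not overlap, with a difference of 0.581 ± 0.082 (limma adjusted p = 0.0152). The means of the other groups, 0.249 to 0.448, lay between those of the compared groups, but their libraries reached into both: 0 to 0.545 in attp2, 0 to 0.583 after LamC RNAi, 0.376 to 0.491 in w1118 at 1 week and 0.399 to 0.507 at 5 weeks. The region passed the threshold under 8 of 19 alternative settings, the fewest of the 5.

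At the remaining 2 called regions attp40, and not LamB RNAi, stood apart from the other groups. The region between CG3594 and Lcp9, a larval cuticle protein gene (2R, 24780810 to 24781107), had no peak in any attp40 library and scored 0.543, 0.706, 0.637, 0.544 and 0.629 after LamB RNAi (difference 0.612 ± 0.0791, adjusted p = 0.0107). Means elsewhere were 0.516 in attp2, 0.471 after LamC RNAi, 0.705 in w1118 at 1 week and 0.618 at 5 weeks, so that the LamB RNAi mean of 0.612 lay within their range. Single libraries of attp2 and LamC RNAi also scored 0, as attp40 did, while the others of these groups scored 0.549 to 0.777. The call ended with all 22 libraries in the fit (adjusted p = 0.0986; 0.00155 to 0.999 over 19 alternatives). The neighbouring region shared by egg and Lcp9 (2R, 24779530 to 24779991) scored 0.334 ± 0.112 in attp40 and 0.462 ± 0.084 after LamB RNAi (adjusted p = 0.985).

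The other such region lay 9432 bp from the nearest gene end on 2R (21848230 to 21848736). It scored 0.0164, 0 and 0 in attp40, and 0.487, 0.688, 0.624, 0.615 and 0.653 after LamB RNAi (difference 0.608 ± 0.0802, adjusted p = 0.0107). The other groups all had a peak, with means of 0.449 in attp2, 0.504 after LamC RNAi, 0.878 in w1118 at 1 week and 0.826 at 5 weeks. Here attp40 was the group without a strong peak.

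**Figure D2:**
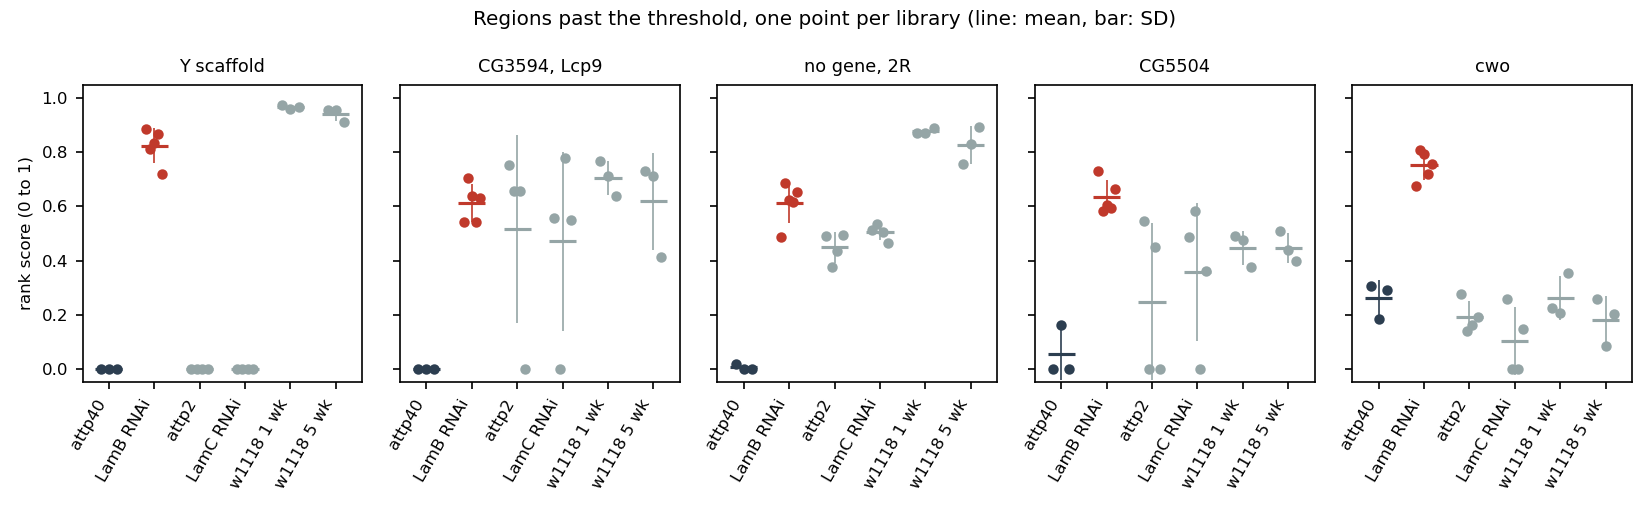
Rank score (y axis, 0 to 1) of the 5 regions past the threshold in each of the 6 groups (x axis), 1 point per library, with the mean as a line and the SD as a bar. LamB RNAi (red) lies above all other libraries near cwo only, while attp40 (dark) is at or near 0 at CG3594 and Lcp9 and at the 2R region with no gene, where the other groups average 0.449 or more.

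The same comparison was made over all regions. A group was said to stand apart where its mean lay beyond those of all 5 other groups and the mean of its partner lay within the range of the remaining 4. Over all 8763 regions attp40 stood apart at 17.4% and LamB RNAi at 16.8%. Of the 186 regions higher at an unadjusted p under 0.05, attp40 stood apart at 35.5% and LamB RNAi at 28.0%, and of the 242 lower regions at 35.5% and 28.1%. The share was higher for attp40 than for LamB RNAi in all 3 sets, a difference that was not tested. The sets are not independent, since the 186 and 242 regions are part of the 8763. They were also picked for a difference between the compared groups, which by itself raises both shares. The attp40 mean rests on 3 libraries and that of LamB RNAi on 5, so the attp40 mean is the less certain.

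Below the threshold, the higher regions of smallest p included one at CG7900 (3R, 8094011 to 8094358), with 0.703, 0.454 and 0.604 in attp40 and 0.823, 0.938, 0.847, 0.869 and 0.913 after LamB RNAi (adjusted p = 0.0716). The groups did not overlap, and LamB RNAi stood apart. At Csk, which encodes a kinase that restrains Src (gene body, 3R, 11648217 to 11649218), means were 0.326 ± 0.127 in attp40 and 0.696 ± 0.0889 after LamB RNAi (adjusted p = 0.198). The region shared by chm, a histone acetyltransferase gene, and CG15818 (2L, 7412316 to 7412630) had no peak in attp40 and a mean of 0.398 ± 0.113 after LamB RNAi (adjusted p = 0.174). There attp40 stood apart, since the other groups averaged 0.222 to 0.414. The remaining ones were CG43107 (0.576 against 0.793 after LamB RNAi), the body of CG43693 (0 against 0.350) and a 3L region with no gene (0 against 0.312), with adjusted p of 0.174 to 0.208.

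Among regions with lower scores none passed, and the smallest adjusted p was 0.0534, although 6 of the 19 alternatives gave 1 to 6 lower calls. It belonged to the region beside CG13367 and su(sable), which encodes a nuclear RNA-binding protein (X, 643928 to 644752). It scored 0.484, 0.422 and 0.526 in attp40 and 0.154, 0, 0.0618, 0 and 0.0424 after LamB RNAi, and passed with library weights (adjusted p = 0.0220) and among regions with a peak in at least 5 libraries (0.0416; 0.0220 to 0.380 over 18 alternatives). The groups did not overlap, but attp40 stood apart, with means of 0.211 in attp2, 0.302 after LamC RNAi and 0 in w1118 at both ages. The region at CG12224 and CG3397 (3R, 11982092 to 11983002) scored 0.675 ± 0.0201 in attp40 and 0.240 ± 0.0698 after LamB RNAi (adjusted p = 0.102), and the other groups averaged 0.106 to 0.334. It passed with all 22 libraries in the fit (adjusted p = 0.00324) and with robust moderation (0.0430), within a range of 0.00324 to 0.580 over 19 alternatives.

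CG45263 showed the reverse layout (3R, 8477608 to 8477848). Its region scored 0.467, 0.302 and 0.272 in attp40, had no peak in any LamB RNAi library, and averaged 0.344 in attp2, 0.325 after LamC RNAi, 0.643 in w1118 at 1 week and 0.737 at 5 weeks (adjusted p = 0.0716). It passed when peaks were ranked by fold (adjusted p = 0.0200) and with library weights (0.0314), within a range of 0.0200 to 0.398 over 17 alternatives. LamB RNAi was the group that stood apart. It also stood apart at y (yellow, a cuticle pigmentation gene that is a common visible marker in fly stocks; X, 361489 to 361898). There attp40 libraries scored 0.488, 0.321 and 0.526, LamB RNAi libraries 0, 0, 0.150, 0 and 0.161, and the other groups averaged 0.359 to 0.554 (adjusted p = 0.174). At CG9380 the scores were narrow in both groups, 0.949 ± 0.0226 against 0.870 ± 0.00859 after LamB RNAi, and all other groups averaged 0.944 to 0.966 (adjusted p = 0.174).

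PGRP-LA, a member of the peptidoglycan recognition protein family of innate immunity, had a region at its end (3L, 9337887 to 9338268) with scores of 0.750, 0.505 and 0.839 in attp40 and 0.296, 0.242, 0.328, 0.270 and 0.186 after LamB RNAi (adjusted p = 0.182). The other groups averaged 0.118 to 0.370, so attp40 stood apart. A region in the body of the same gene (3L, 9335506 to 9336263) scored 0.837 ± 0.0567 and 0.864 ± 0.0555. At CaMKI, a calcium and calmodulin dependent kinase gene on chromosome 4 (454959 to 456110), attp40 libraries scored 0.318, 0.398 and 0.270, and 4 of the 5 LamB RNAi libraries scored 0 (adjusted p = 0.117). All 5 had a peak in the full deposited lists, with folds of 2.54 to 4.73 against 5.20 to 7.33 in attp40. The region in Fhos, which encodes a formin that builds actin filaments in muscle, scored 0.240 ± 0.0221 against 0.0225 ± 0.0268 after LamB RNAi (adjusted p = 0.274). The rest, at CG12617, CG32115, CG44838 and the shared region of Su(P), CG4101 and Mo25, differed by -0.266 to -0.197, with adjusted p of 0.174 to 0.274.

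**Figure D3:**
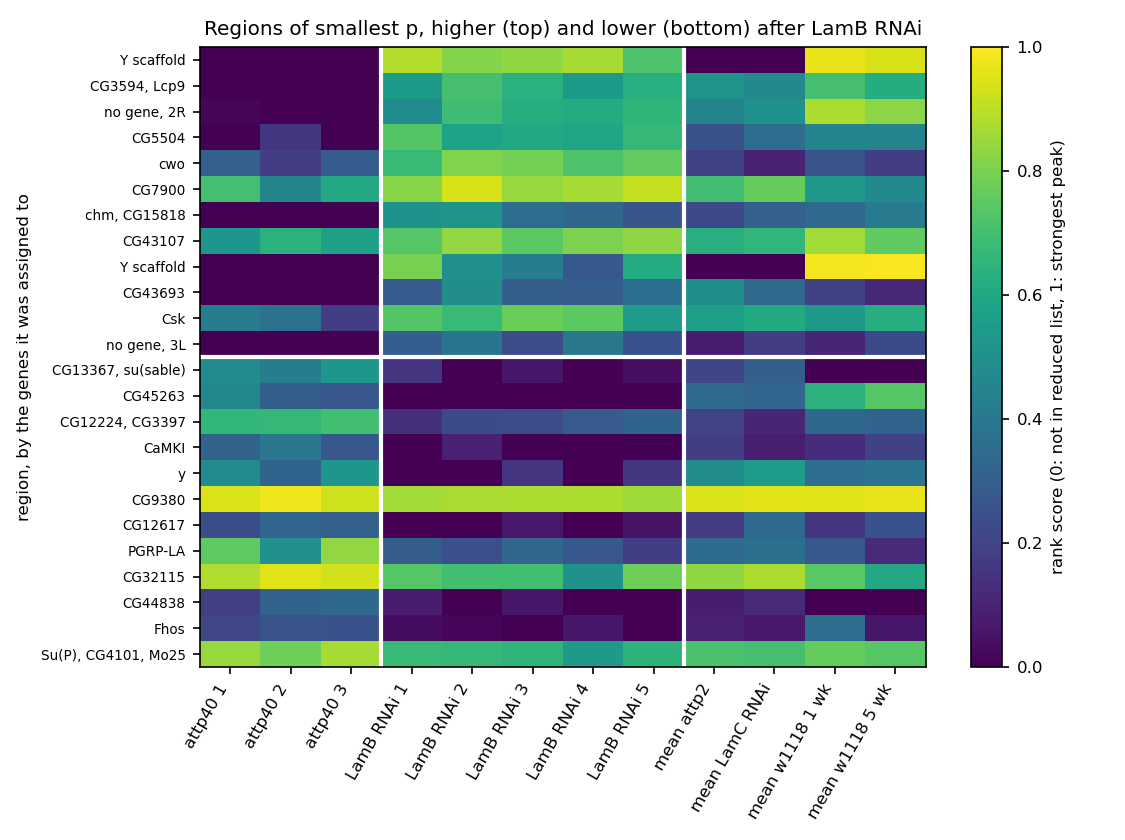
Rank score (colour, 0 to 1) of the 12 higher (top) and 12 lower (bottom) regions of smallest p, in each of the 8 libraries and, on the right, as the mean of the other 4 groups. Rows such as PGRP-LA, where attp40 is bright and the other groups resemble LamB RNAi, differ from rows such as cwo and y, where LamB RNAi differs from every other group.

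Genes of heart function, chromatin and metabolism gave no call. The test could hardly have called a difference near 0.2, however. On simulated data, among regions of middle score, it recovered 0.00% of those shifted by 0.2, 52.1% at 0.4 and 93.6% at 0.6. A count of 0 called therefore does not show that a list was unchanged. The cardiac and mesodermal transcription factors held 62 regions with a median difference of -0.00524 and 0 called in either direction (0.0571% of all regions were called). The lowest p among them belonged to the end of mid, the fly counterpart of the vertebrate cardiac factor Tbx20 (2L, 5461110 to 5461681). It scored 0.847, 0.896 and 0.856 in attp40 and 0.630, 0.679, 0.711, 0.784 and 0.581 after LamB RNAi. The groups did not overlap, LamB RNAi stood apart, and the adjusted p was 0.297 over the 8 libraries and 0.02 when all 22 libraries shared 1 estimate of the spread. Over 19 alternatives it ran from 0.02 to 0.802. At pnr, a GATA factor gene (3R, 16025544 to 16026323), means were 0.906 ± 0.0422 and 0.799 ± 0.0533 (adjusted p = 0.586).

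The sarcomere list held 79 regions, of which 31 had a positive and 48 a negative difference (median -0.0201). Its regions of smallest p lay near Mlc1, a myosin alkali light chain gene (0.224 ± 0.00995 in attp40 and 0.0524 ± 0.0718 after LamB RNAi, adjusted p = 0.781), and at Obsc, the obscurin gene (0.297 ± 0.0336 and 0.157 ± 0.0299, adjusted p = 0.985). Ion channel and calcium handling genes had a median of -0.00744 over 53 regions. In the body of Sh, a voltage-gated potassium channel gene, scores were 0.472 ± 0.186 and 0.155 ± 0.156 (adjusted p = 0.792). Matrix and adhesion genes had a median of -0.00446 over 70 regions, and the end of Mmp1, a matrix metalloproteinase gene (2R, 24687517 to 24688323), scored 0.655, 0.609 and 0.654 in attp40 and 0.812, 0.726, 0.829, 0.833 and 0.881 after LamB RNAi (adjusted p = 0.228). The Mmp1 groups did not overlap, and the other groups averaged 0.669 to 0.800.

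Nuclear envelope and lamina genes, the partners of the lamins, split evenly: 25 of their 50 regions had a positive and 25 a negative difference, the median was 0.00177, and 0 had an unadjusted p under 0.05 (4.88% over all regions). Chromatin silencing and Polycomb genes had a median of -0.00387 over 41 regions, oxidative phosphorylation genes -0.00863 over 41, insulin, TOR and lipid genes -0.00233 over 83, and stress genes 0.00418 over 55. The regions of smallest p in these lists, at phol, Su(var)3-9, COX8, ND-39, foxo, InR, Hsp83 and Gadd45, all had an adjusted p of 0.423 or above.

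Immunity genes had a median of 0.0114 over 50 regions, 32 of them positive. Beside PGRP-LA they included a region 865 bp from CecB, an antimicrobial cecropin gene (3R, 30214662 to 30215347). It scored 0 in all attp40 libraries, 1 of which had a weaker peak in its full list, and 0.146, 0.233, 0.554, 0.638 and 0.250 after LamB RNAi (adjusted p = 0.586). The LamB RNAi libraries were spread widely, and the other groups averaged 0.110 to 0.255.

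**Figure D4:**
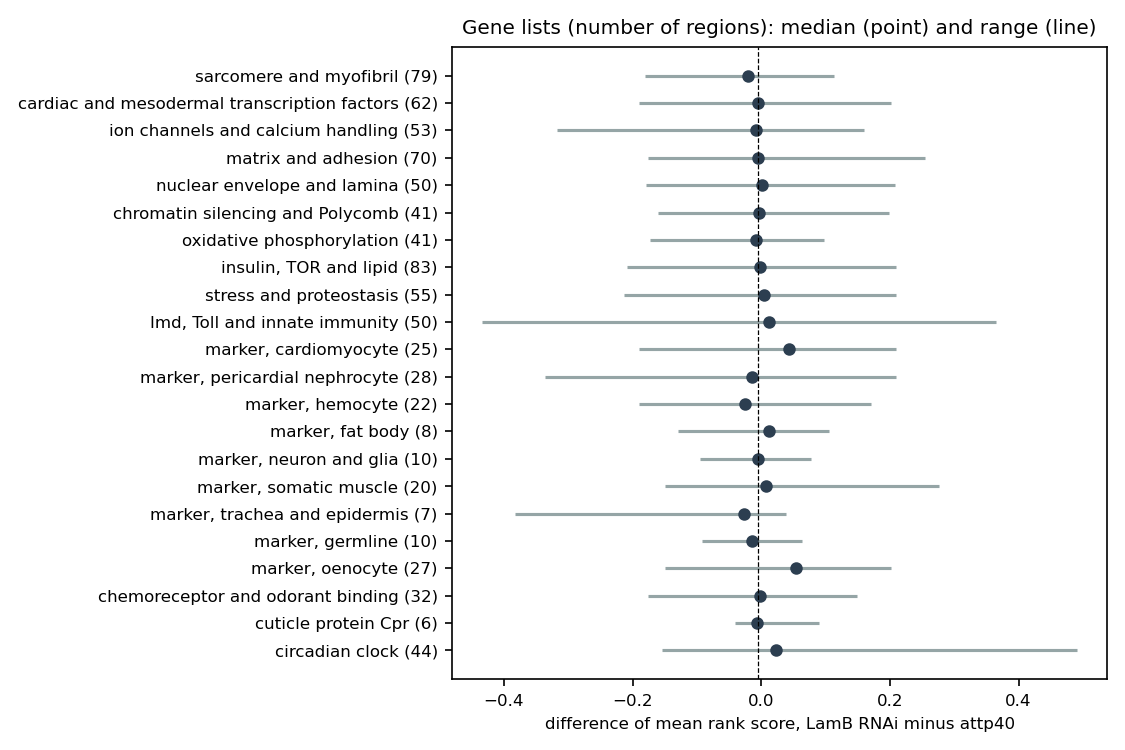
Median (point) and range (line) of the difference in mean rank score, LamB RNAi minus attp40 (x axis), for each gene list, with its number of regions in brackets. The dashed line is the median of all regions tested, -0.0051. The list medians run from -0.0273 to 0.0543, and the longest line to the right is the clock list with the called cwo region.

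Regions assigned to genes used as cell type markers were examined in both groups. Of 11 cardiomyocyte marker genes 9 had a tested region, among them Hand, whose strongest region scored 0.634 on average in attp40 and 0.574 after LamB RNAi, and H15, with 0.880 and 0.892. tin and Doc1, both defining heart factors, had no tested region. The summed score of the 25 cardiomyocyte regions was 7.67 to 8.23 in attp40 libraries and 7.78 to 9.51 after LamB RNAi. Their median difference was 0.0435, and 0 were called (0.0571% over all regions). Pericardial nephrocyte markers (12 of 14 genes with a region, Cubn and eve without) summed to 11.9 to 13.4 and 11.4 to 13.12. In this list sns, a nephrin-like gene of the slit diaphragm, had scores of 0.485, 0.470 and 0.511 in attp40 and 0.233, 0.139, 0.232, 0.151 and 0.00954 after LamB RNAi (2R, 8797525 to 8798823, adjusted p = 0.297). The sns groups did not overlap, and the other groups ranged from means of 0.158 to 0.477. The other region of smallest p in this list lay in prc, a pericardin matrix gene (3L, 11964801 to 11965206), and went the other way, with 0.105, 0 and 0.241 in attp40 and 0.502, 0.156, 0.426, 0.302 and 0.234 after LamB RNAi (adjusted p = 0.985). The prc groups overlapped.

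Regions assigned to marker genes of other cells were open in both groups. The strongest regions of moody (0.993 on average in attp40), elav (0.966) and the germline gene vas (0.941) scored above that of Hand (0.634). Other genes of these lists, such as nSyb, repo and piwi, had no tested region. A score at such a gene therefore does not tell which cells a library held. Hemocyte markers (10 of 16 genes with a region) summed to 7.93 to 9.53 in attp40 and 7.36 to 8.86 after LamB RNAi, fat body markers (7 of 12) to 3.57 to 4.19 and 3.71 to 4.09, and neuron and glia markers (7 of 14) to 5.54 to 5.84 and 5.63 to 5.78. Somatic muscle markers (7 of 11) summed to 9.44 to 10.4 and 9.66 to 10.9, tracheal and epidermal markers (5 of 13) to 3.00 to 3.63 and 2.46 to 3.23, and germline markers (7 of 15) to 4.59 to 4.74 and 4.45 to 4.76. Oenocyte markers (8 of 9) had the highest median difference of the marker lists, 0.0543, with sums of 8.53 to 10.5 and 9.38 to 13.6. The lists share genes and are not separate readouts. Of the 27 oenocyte regions 9 belonged to svp, which also gave 9 of the 25 cardiomyocyte regions. Hand and prc were in both the cardiomyocyte and the nephrocyte list. These ranges overlapped between the groups in every list, and 0 marker regions passed the threshold (0.0571% over all regions). At that share, lists of this size would hardly hold a call. The same holds for genes of chemoreceptors and odorant binding (median -0.00172 over 32 regions) and of Cpr cuticle proteins (-0.00717 over 6), which also had 0 called.

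In the reduced lists a peak was found in every library of 1 group and in none of the other at 36 regions (0.411% of those tested). LamB RNAi alone had one at 15 (0.171%) and attp40 alone at 21 (0.24%). The balance rested on the cut. In the full lists of the other group, 12 of the 15 still had no peak but only 1 of the 21, CG45263, and the other 20 had a weaker one in at least 1 LamB RNAi library. This look was unequal, however. The full lists held 9711, 9448 and 8491 peaks in attp40 and 9259 to 11150 after LamB RNAi. The list of attp40 replicate 3 thus had no peak below the cut, and a weaker peak was easier to find in 5 LamB RNAi lists. With all deposited peaks merged and scored, on the same unequal lists, the counts were 40 and 4. Leaving out 1 library gave 17 to 52 and 21 to 31. That step only loosens the condition, so these counts could not fall below 15 and 21. A single such region has an exact Fisher p of 0.0179, which no adjustment over 8763 regions could pass. Of the 15, LamB RNAi stood apart at 5 and attp40 at 5, and of the 21, LamB RNAi at 4 and attp40 at 12. Mean scores were 0.0262 to 0.347 in attp40 at the 21 and 0.0397 to 0.825 after LamB RNAi at the 15. Beside CG45263 the 21 included Eip63F-1 (0.197 ± 0.142), Pka-R1, a protein kinase A regulatory subunit gene (0.166 ± 0.118), the neuropeptide receptor gene sNPF-R (0.157 ± 0.105) and the region of hoka and CG13705 (0.137 ± 0.0839).

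Beside the regions already described, the 15 held a region in fru, which encodes a BTB zinc finger factor of neuronal sex determination (3R, 18507751 to 18507988, mean 0.355 ± 0.128), and one at CG4230 and CG5828 (2L, 5096294 to 5096596, 0.378 ± 0.168). They also held one at Mkp3, a phosphatase gene acting on MAP kinase (3L, 19071354 to 19071633, 0.243 ± 0.118). In fru the means of the other groups were 0.0572 in attp2, 0 after LamC RNAi, 0 in w1118 at 1 week and 0.105 at 5 weeks. At Mkp3 they were 0.0238, 0.0217, 0 and 0.00919. LamB RNAi stood apart at both, and their adjusted p were 0.277 and 0.586.

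**Figure D5:**
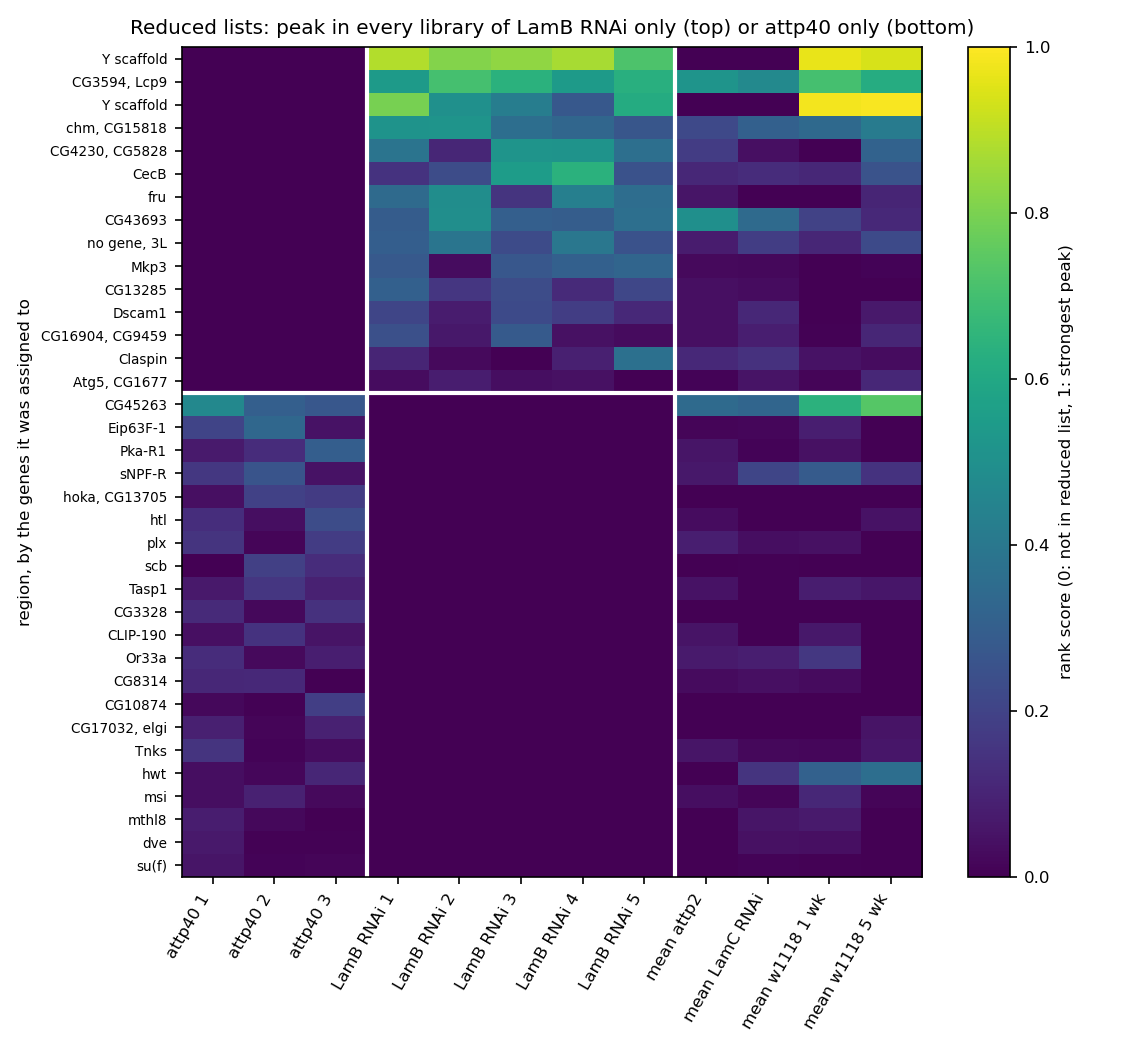
Rank score (colour, 0 to 1) at the 36 regions with peaks in all reduced lists of 1 group and no reduced list of the other, per library and, on the right, as the mean of the other 4 groups. The 15 regions of LamB RNAi (top) reach 0.885 in a single library, with group means of 0.0397 to 0.825. The 21 regions of attp40 (bottom) reach 0.467 in a single library, with group means of 0.0262 to 0.347.

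By genome class, the tested regions comprised 5379 gene ends, 2806 stretches inside genes, 364 up to 5 kb away and 214 with no gene. These 214 lay farther from any gene or on a scaffold without genes in the gene table, where no distance could be given. The 5 calls fell as 2 at gene ends, 0 in gene bodies, 1 within 5 kb and 2 with no gene, 1 of them on the Y scaffold. Median differences were -0.00714 at gene ends, -0.00179 in gene bodies, -0.00316 within 5 kb and 0.00365 with no gene. An unadjusted limma p under 0.05 was found at 4.03%, 5.99%, 5.77% and 10.3% of these regions, in the same order (4.88% over all regions). On Y and unplaced scaffolds it was found at 44.4% of 9 regions, which are not separate from those with no gene. Differences between these shares were not tested. Regions in gene-poor surroundings, with 0 to 3 gene ends within 25 kb, had a mean score of 0.444 ± 0.00725 in attp40 and 0.435 ± 0.0113 after LamB RNAi. Those with over 15 had 0.469 ± 0.00759 and 0.467 ± 0.0265. On the chromosome arms median differences ran from -0.00784 on 3R to -0.00314 on 2R, and chromosome 4, which is rich in heterochromatin, had -0.00708 over 84 regions.

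The position of the summit inside a peak was compared at the 6024 regions with a peak in all 8 libraries, a measure added after the data had been seen. Summit positions did not overlap between the groups at 133 regions (2.21%), with a gap of at least 100 bp at 11 (0.183%). At Set8, a histone H4 methyltransferase gene, and Crz, a neuropeptide gene (3R, 14315759 to 14316752), attp40 summits lay 295 bp from the start of the region in all 3 libraries, and LamB RNAi summits at 531, 568, 526, 573 and 569 bp. Libraries of the other groups used both positions, from 294 to 586 bp. The regions of Gbp1 and Gbp2, of Hsc70-5 and CG8531, and of lqf and ltl had gaps of 733, 319 and 286 bp, and there too libraries of the other groups lay at either position.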

How the data were processed

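ATAC-seq peak lists of fly hearts were used, 1 deposited list per library. The submitters' processing notes name genome build dm6 and the tools MACS2, Bowtie2, Picard and SAMtools, without versions or settings, and no source used here mentions read shifting. For every peak the deposited files give a ratio (fold over local background), −log10 of p and −log10 of q, the last at least 2.01 in these 8 lists. Depth is unknown, so no counting interval is given.

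Lists were cut to 8491 peaks by the deposited −log10 p, merged with bedtools 2.31.1 (overlap 1 bp), scored by rank, and tested with limma 3.58.1 under R 4.3.3 (trended moderation, tested on simulated data) over 8 libraries without covariates. Library measures used exact two-sided permutation tests. Tables were handled in pandas 2.3.3 and scipy 1.17.1 (numpy 2.4.6, Python 3.11.15). Regions were assigned to protein-coding genes of the RefSeq table (Release 6 assembly, no strand): gene ends within 500 bp, then gene bodies, then ends within 5 kb. All 719 genes of the 22 lists were found, 9 under another symbol. The genes named are the 12 regions of smallest p in each direction (those past the threshold first), all regions at Lam and LamC, the 2 of smallest p per list, and the 5 highest of each set found in 1 group alone. Other regions of a named gene, the clock list, the look below the reduced lists, the summit positions, the marker sums, fru and Mkp3 were added after their values were seen. Members, lists and tests were chosen with earlier results of these data known. A planned motif search was not run, since no sequence was used here. Alternatives were list length, ranking column, filters, overlap, summit windows, all 22 libraries in the fit, a replicate block, library weights, robust moderation and leaving out each library.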

Additional observations from a re-analysis of the deposited data

Results flagged for a closer look

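Of 79 regions examined, 9 had a LamB RNAi library far from the other 4 by Dixon's criterion. For normally distributed values chance alone meets it in about 1 of 20 groups. Rank scores stop at 0, so a region where the other 4 libraries score 0 always meets it, as at CaMKI and srp. LamB RNAi replicate 1 was high at phol (0.859), foxo (0.672), srp (0.147) and a region in the body of svp (0.582). At srp all 5 had a peak in the full deposited lists. LamB RNAi replicate 3 was high at hth (0.110) and Mst87F (0.0478) and had no peak, a score of 0, at exd. LamB RNAi replicate 2 was the only one with a score above 0 at CaMKI (0.0901), where all 5 had a peak in the full deposited lists, and LamB RNAi replicate 4 was low at the region of Su(P), CG4101 and Mo25 (0.537). None of these 9 regions passed the threshold in the comparison with attp40. With 3 libraries, attp40 was not examined in this way.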

How the results depend on the processing

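The Y scaffold region passed the threshold in 18 of 19 alternatives, those near cwo and on 2R without a gene in 12, CG3594 and Lcp9 in 11 and CG5504 in 8. With lists cut to 4245 peaks (4584 regions) 0 regions were higher, and adjusted p ran from 0.141 to 0.999 for these 5; 191 had an unadjusted p under 0.05. Higher and lower counts were 8 and 0 with all deposited peaks, 4 and 1 ranked by fold, 5 and 1 with a peak in at least 5 libraries, 5 and 2 with library weights, 6 and 1 with robust moderation, 8 and 6 with all 22 libraries (mid, fru and y among the added), 8 and 4 with summit windows, and 1 to 5 and 0 leaving out 1 library. Of the 7 calls that summit windows added, 6 were neighbouring pairs of opposite sign at Hsc70-5, lqf and Set8. With the replicate block 1 region was higher. Same-numbered libraries deviated together with r of 0.145, 0.223 and 0.0888, and pairs of other numbers had r of -0.255 to 0.145. Replicates 1 and 2 of attp40 correlated best with the LamB RNAi library of their own number. For attp40 replicate 3 the best was LamB RNAi replicate 1 (0.145). Whether libraries of the same number share a batch was not tested, and the labels do not say.

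Regions found in 1 group alone numbered 6 after LamB RNAi and 7 in attp40 with lists of 4245 peaks, 40 and 4 with all deposited peaks, 15 and 0 with a peak in at least 5 libraries, 23 and 23 with summit windows, and 17 to 52 and 21 to 31 leaving out 1 library. The 15 and 0 were fixed in advance and are no check. A region found in attp40 alone has a peak in only 3 libraries, so that filter removes it. Leaving out a library could only keep or raise the main counts of 15 and 21. The Jaccard difference was -0.0194 to 0.00367 leaving out 1 library. On lists of equal length the differences (LamB RNAi minus attp40) changed sign to -13.8 kb covered, 2.27 bp of median width, 0.182 of median fold and 0.708 percentage points at gene ends. Leaving out 1 library, covered length differed by -198.1 to 598.6 kb and median −log10 p by -0.443 to 3.64.

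Small differences changed sign at Hel25E and Lam (0.023 with all deposited peaks; -0.0446 to 0.033 leaving out 1 library), at LamC and ttv (-0.0195 to 0.0698 likewise), Mst87F (0.0027, all deposited peaks), Cpr73D (0.00401 by fold; -0.0566 to 0.0146 leaving out 1 library), PGRP-LA (0.0198 with all deposited peaks; -0.0573 to 0.0176 and -0.00357 to 0.0524 leaving out 1 library) and cwo (0.00652 and 0.0318 with all deposited peaks, 0.00143 with library weights, 0.0162 with lists of 4245 peaks; -0.039 to 0.0132 and -0.0563 to 0.0238 leaving out 1 library). The cause of these changes was not tested. Without depth, a missing peak may be a weak one.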
